A study of Mus musculus with 12 samples.

Results

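In all, 10 genes of the switch that the intestine makes between suckling and weaning were followed through the colon of 2-week-old mice: Prdm1, Fcgrt, Lct, Ass1, Asl, Arg1, Arg2, Otc, Cps1 and Sis. They were taken by gene symbol from the 35688 genes in the series, with no threshold on a measured value but with earlier results of these data known, and all 10 were found. Bulk RNA from the colon wall in its full thickness was compared between 5 Il10-/- mice, which lack the anti-inflammatory cytokine interleukin 10, and 6 Il10-/- Tnfr1-/- mice, which in addition lack TNF receptor 1, the product of Tnfrsf1a. Loss of Il10 was thus shared by every animal, and the series held neither a wild-type colon nor a second age. The labels do not state the alleles, strain, sex, litter or batch, so p-values measure the spread between these animals with whatever those add. Values are transcript abundances on the authors' scale, divided by transcript length and summed per gene. They are not counts, and the depth of each library is unknown.

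Before weaning, the rodent gut lives on milk. Its epithelial cells take up maternal immunoglobulin G through the neonatal Fc receptor (Fcgrt), split lactose with lactase (Lct) and make arginine from citrulline through argininosuccinate synthase (Ass1) and argininosuccinate lyase (Asl). At weaning sucrase-isomaltase (Sis), which digests the sugars of solid food, and the arginase Arg2, which breaks arginine down, replace this programme, and the transcriptional repressor PRDM1 (Blimp-1) is known to hold the adult programme back until then. Carbamoyl-phosphate synthase (Cps1) and ornithine transcarbamylase (Otc) make the citrulline. Most of this is known from the small intestine, and the colon shares only parts of it.

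The libraries summed to between 804109 and 1378971 units. Tnfrsf1a lay between 30.6 and 78.1 in Il10-/- and between 12.0 and 17.0 in Il10-/- Tnfr1-/- colons, a log2 fold change of -1.60 ± 0.22 (SE, limma adjusted p = 0.125, exact permutation p = 0.00216), so no library went against its label. Il10 (9.06 to 22.9 against 3.27 to 7.23) was targeted in both genotypes and checks nothing. The colon markers were present in every library, with Epcam at 646.4 to 1450.2, and albumin (Alb, at most 0.556) and trypsin (Prss2, at most 0.187), which define liver and exocrine pancreas, were near 0 throughout. Less specific genes of those lists were higher, with Trf at 12.5 to 335.7 and Serpina1b at 0.930 to 37.7 for liver and Cela1 at 29.7 to 129.96 for pancreas. A pair of libraries stood apart. Il10-/- replicate 1 had the highest Hoxb13 and Hoxd13, homeobox genes of the most distal colon (140.5 and 56.0, against at most 63.4 and 4.65 elsewhere). Il10-/- Tnfr1-/- replicate 6 had the highest Car1, a carbonic anhydrase of colon epithelium (32159.5 against at most 3564 elsewhere), the highest colon epithelium score and the lowest Hoxb13 (0.033). Smooth muscle markers were higher on average in Il10-/- Tnfr1-/- colons for 10 of 10 genes, 9 of them at an unadjusted p under 0.05 and 0 after adjustment (limma). Of all genes tested, 55.5% were higher, and 4.74% were higher at an unadjusted p under 0.05. The smooth muscle markers summed to between 184.4 and 3505 in Il10-/- and between 827.7 and 8010 in Il10-/- Tnfr1-/- libraries. In bulk tissue, fewer cells of a type and less RNA per cell cannot be told apart.

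The 10 genes differed widely in level. On the length-divided scale the medians over the 11 libraries ran from Fcgrt (69.9) through Ass1 (44.0), Asl (39.4) and Arg2 (28.9) to Otc (3.14), Sis (2.72), Prdm1 (2.21) and Cps1 (2.02), with Arg1 (0.701) and Lct (0.021) last. The neighbours Ass1, Asl and Arg2 overlapped across libraries, as did Otc, Sis, Prdm1 and Cps1, so the order within each of these groups is not beyond the spread between animals. The 2-week colon thus held transcripts of the neonatal Fc receptor and the arginine-making enzymes together with those of Arg2, while lactase was close to nothing.

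**Figure D1:**
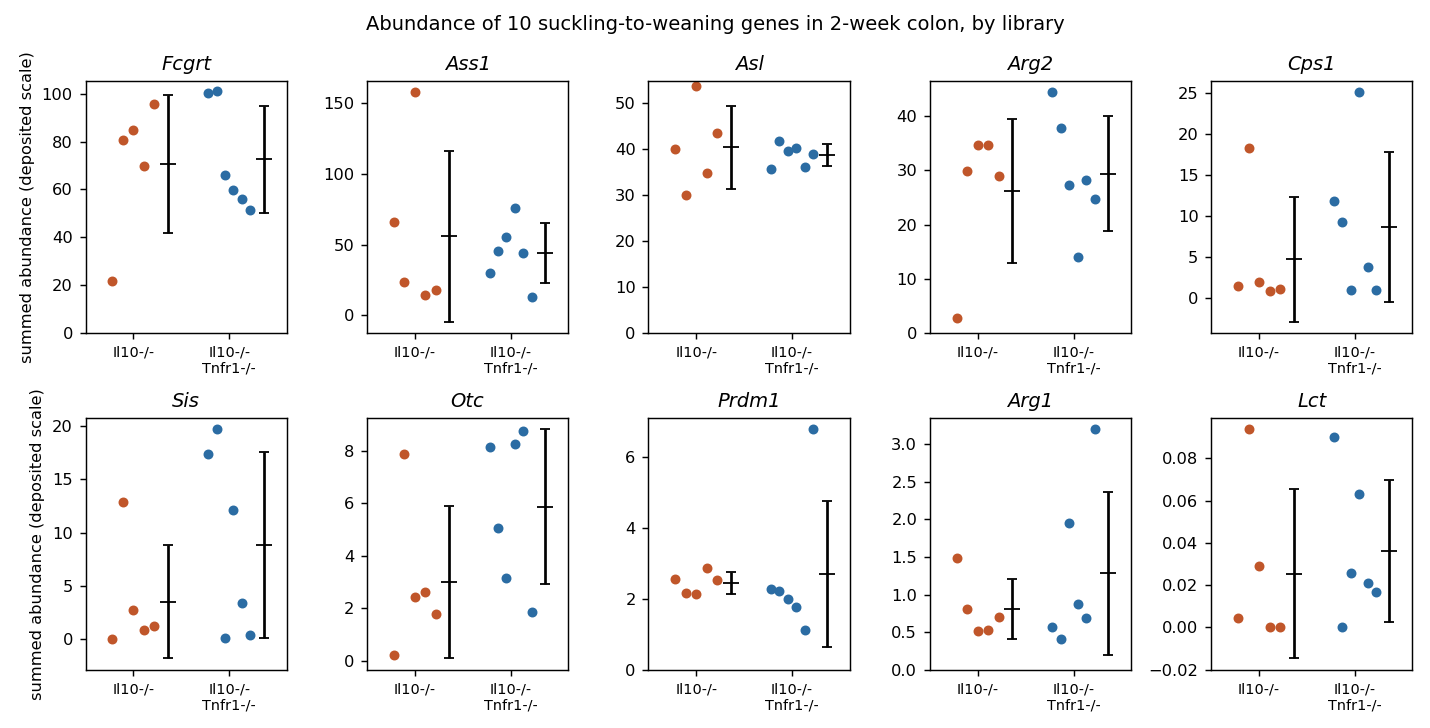
Summed abundance (vertical axis, deposited scale, a separate axis for each gene) of the 10 genes in each library, with orange points for 5 Il10-/- and blue points for 6 Il10-/- Tnfr1-/- colons and black bars for mean ± SD. The genotypes overlap in every panel. For Sis, Cps1 and Otc only replicate 2 is high among the Il10-/- libraries, while the Il10-/- Tnfr1-/- libraries hold both low and high values.

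None of the genes separated the genotypes. Of the 10, 8 passed the filter on low values (over 1 in at least 5 libraries) and were tested, while Lct and Arg1 were not. Limma called 0 of the 8 after Benjamini-Hochberg adjustment over all 13561 genes tested (background 0%), and 0 of 8 at an unadjusted p under 0.05, where the background was 8.34%. By the exact permutation test over 462 assignments the lowest of the 8 p-values was 0.108, for Otc. No gene of the 8 lacked overlap between the genotypes (background 0.575%). Of the 8, 6 were higher and 2 lower on average in Il10-/- Tnfr1-/- colons, beside 55.5% of all genes higher, and their median log2 fold change was 0.298 against 0.0539 over all genes. With libraries scaled to an equal total, which moved the median of all genes to 0.187, the 8 genes were all higher, Prdm1 at 0.06 and Asl at 0.11 included, beside 9501 higher of 13633 genes. By median-ratio size factors 6 were higher and 2 lower, beside 6605 higher of 13588 genes. In the authors' deposited table, the lowest q-value among the 21 transcripts of these genes with a test was 0.684.

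**Figure D2:**
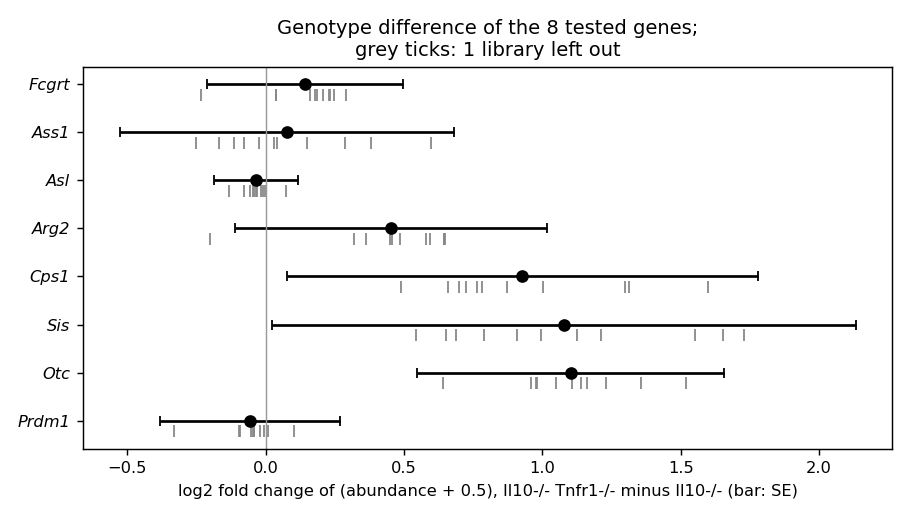
Log2 fold change of abundance + 0.5 (horizontal axis, Il10-/- Tnfr1-/- minus Il10-/-) for the 8 tested genes, with points for the limma estimate, bars for its SE and grey ticks for the estimate without 1 library at a time. The estimates run from -0.06 for Prdm1 to 1.10 for Otc, and the ticks of Prdm1, Ass1, Asl, Arg2 and Fcgrt fall on both sides of 0.

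Animals of the same genotype differed widely in 5 of the 8 tested genes. The SD within genotype of the log2 value was 2.01 for Sis, 1.62 for Cps1, 1.15 for Ass1, 1.07 for Arg2 and 1.03 for Otc, against a median of 0.417 over all genes tested. As a description, 99.5%, 98.8%, 95.6%, 94.3% and 93.7% of genes varied less than these 5. Fcgrt (0.653) varied more than 78.9% of all genes, and Prdm1 (0.551) more than 69.5%. Against genes within 0.5 of its own mean log2 value, Fcgrt varied more than 89.2%, about as Otc did (90%), and Prdm1 more than 50.4%. The Asl sum was among the steadiest, with an SD of 0.220 and only 10.5% of genes below it (16.0% of genes of like level).

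Prdm1, on chromosome 10 from 44437177 to 44528501 (minus strand, build mm10), encodes the repressor that marks the suckling state. It was at 2.57, 2.16, 2.14, 2.88 and 2.54 in Il10-/- replicates 1, 2, 3, 5 and 6. In Il10-/- Tnfr1-/- colons the lowest value was 1.13, the median 2.10 and the highest 6.81. All libraries thus lay within a narrow low range except Il10-/- Tnfr1-/- replicate 6, whose 6.81 stood against at most 2.29 in the other 5 of its genotype. The means were 2.46 ± 0.314 (SD, n = 5) and 2.70 ± 2.05 (SD, n = 6), and the log2 fold change was -0.06 ± 0.32 (SE, limma adjusted p = 0.943). Without replicate 6 it was -0.33. That library also had the highest Vil1 (561.7), Car1 and Krt20 (2885), all epithelial genes, and the part of its epithelial content in the Prdm1 value was not tested. The 12 epithelium markers summed to between 11600.6 and 25919 in Il10-/- and between 8794 and 27617 in Il10-/- Tnfr1-/- libraries, and 3 were higher and 9 lower on average in the latter (0 and 12 with median-ratio factors, 5 and 7 with equal library totals). Of all genes tested, 55.5% were higher there. Across the 11 libraries Prdm1 correlated with the colon epithelium score at r = 0.698 (rho = 0.709, permutation p = 0.0180 and 0.0177, adjusted over 24 relations 0.216 and 0.165), which did not pass, and r was 0.278 without Il10-/- Tnfr1-/- replicate 6 and Il10-/- replicate 6. Transcript ENSMUST00000039174.10 carried 97.3% of the gene's signal.

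Fcgrt, on chromosome 7 from 45092990 to 45103851 (minus strand), had the highest median of the 10, although the Ass1 sum exceeded it in 3 of 11 libraries. It stood at 21.9, 80.7, 84.6, 69.9 and 95.6 in the Il10-/- libraries, where replicate 1 was well below the rest. In Il10-/- Tnfr1-/- libraries it ran from 51.6 through a median of 62.9 to 101.3. Means were 70.5 ± 28.7 (SD, n = 5) and 72.5 ± 22.5 (SD, n = 6), with a log2 fold change of 0.14 ± 0.35 (SE, limma adjusted p = 0.863) that turned to -0.23 without Il10-/- replicate 1. The neonatal Fc receptor transcript was thus present in every library of both genotypes. Of its signal 62.0% was on ENSMUST00000003512.8 and 34.8% on ENSMUST00000210642.1, both protein-coding.

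Lct, on chromosome 1 from 128284756 to 128328318 (minus strand), is the milk-sugar enzyme of the small intestinal brush border. It was listed at 0 in 3 of 11 libraries and never rose above 0.094, and 53.9% of its pooled signal was on a retained-intron transcript. Lactase transcript was therefore not detectable above a trace in either genotype, and no fold is given. Other genes of the small intestine list were present. Fabp2, a fatty acid binding protein of absorptive cells, ran from 6.97 to 1640 and Rbp2, a retinol binding protein, from 25.3 to 239.8, while Fabp6, a bile acid binding protein of the ileum, ran from 1.66 to 19.4 and 2 of the 10 listed genes were under 1 in every library.

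The sums of the arginine-making pair behaved differently from each other. Ass1, on chromosome 2 from 31470207 to 31520672 (plus strand), ranged over 11.9-fold: 66.3, 23.8, 157.5, 14.4 and 18.3 in Il10-/- replicates 1, 2, 3, 5 and 6, and from 13.2 through a median of 44.9 to 76.1 in Il10-/- Tnfr1-/- libraries. Il10-/- replicate 3 was the highest of all. Asl, the next enzyme, on chromosome 5 from 130011258 to 130029247 (minus strand), was at 39.9, 29.8, 53.5, 34.8 and 43.3 in the Il10-/- and between 35.5 and 41.7 (median 39.1) in the Il10-/- Tnfr1-/- libraries, a range of 1.79-fold. Neither passed the threshold for a difference by genotype, and the SE of Ass1 was wide. The log2 fold changes were 0.08 ± 0.60 (SE, limma adjusted p = 0.960) for Ass1 and -0.03 ± 0.15 (SE, limma adjusted p = 0.925) for Asl.

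The Ass1 sum rested in large part on transcripts that the annotation does not class as protein-coding. Its only protein-coding transcript, ENSMUST00000102840.4 with 16 exons, held 48.2% of the pooled signal and between 27.1% and 74.6% of it in a library. The rest was on the short retained-intron transcripts ENSMUST00000130195.1 (462 bases) and ENSMUST00000192802.1 (485 bases), and in Il10-/- replicate 3 the first alone was at 83.7. On the coding transcript, Ass1 was at 43.9, 9.19, 42.8, 8.59 and 5.06 in the Il10-/- libraries and between 7.69 and 56.7 in the Il10-/- Tnfr1-/- libraries, so the highest library became Il10-/- Tnfr1-/- replicate 4. Means on that transcript were 21.9 ± 19.6 (SD, n = 5) and 25.5 ± 18.6 (SD, n = 6), with a log2 fold change of 0.44. Asl showed a like split: 65.3% of its signal was on ENSMUST00000159096.7, with 9 exons and 864 bases, and 22.2% on ENSMUST00000161640.7, with 11 exons, whereas the transcripts of 17 and 18 exons that the authors' table classes as principal held 6.33% and 4.13%. Transcripts of a gene share reads, and how well these short models were told apart was not tested.

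**Figure D3:**
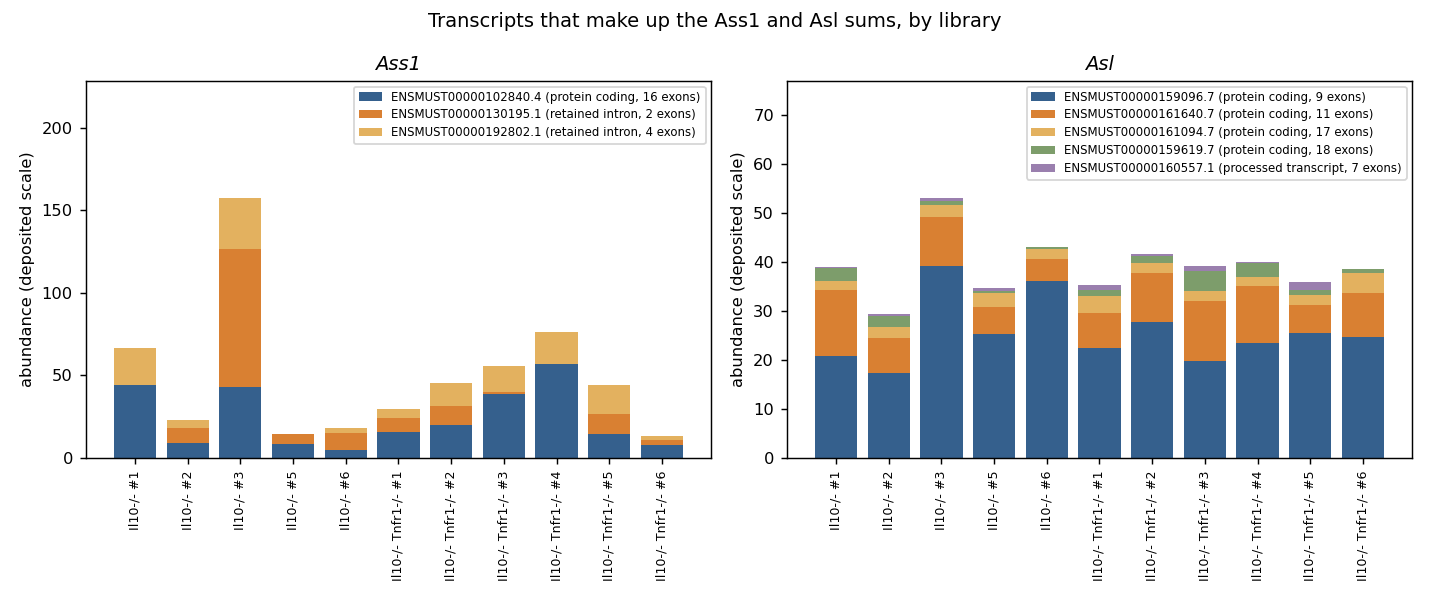
Abundance (vertical axis, deposited scale) of the transcripts that make up Ass1 (left) and Asl (right), stacked for each of the 11 libraries. The tall Ass1 bar of Il10-/- replicate 3 is mostly the 2-exon retained-intron transcript at 83.7, and the Asl bars are mostly the 9-exon transcript in every library.

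Ass1 tended to be high where smooth muscle markers were high. Its log2 value correlated with the smooth muscle score at r = 0.705 (rho = 0.727, permutation p = 0.0162 and 0.0141), which did not pass adjustment over the 24 relations (0.216 and 0.165), and within genotype r was 0.825. On the coding transcript alone r was 0.765. With the smooth muscle score in the limma fit, the Ass1 log2 fold change turned to -1.08 ± 0.44 (SE, unadjusted p = 0.0298, adjusted p = 0.911). The genes most like Ass1 across the 11 libraries, of 9148 searched and centred within genotype, were Htr3a, a serotonin-gated ion channel subunit (r = 0.947), Fgf13, a fibroblast growth factor family member (r = 0.929), and Kif1bp, a kinesin-binding protein (r = 0.914). Htr3a was at 22.4 in Il10-/- replicate 3, where the Ass1 sum was highest, and at 0.051 and 0.324 in Il10-/- replicates 5 and 6, where Ass1 was low. With the coding transcript, r was 0.809 for Htr3a and 0.918 for Kif1bp.

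Of the arginases, the mitochondrial Arg2 (chromosome 12, 79130777 to 79156301, plus strand) was the more abundant by median. It was at 2.84, 29.9, 34.7, 34.7 and 28.9 in the Il10-/- libraries and ran from 14.0 through 27.7 to 44.4 in the Il10-/- Tnfr1-/- libraries. Il10-/- replicate 1, the library with the highest Hoxd13, was far below the other 4 of its genotype, and the groups overlapped. The log2 fold change was 0.45 ± 0.56 (SE, limma adjusted p = 0.718), and -0.20 without that library. Arg1, the cytosolic arginase of liver and of some macrophages (chromosome 10, 24915221 to 24927484, minus strand), was over 1 in only 3 libraries, with 1.49 in Il10-/- replicate 1 and 1.95 and 3.20 in Il10-/- Tnfr1-/- replicates 3 and 6. Its other values lay between 0.416 and 0.873.

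Ratios within a library set the arginine-making enzymes against Arg2. The log2 ratio of Ass1 over Arg2 averaged 0.86 ± 2.33 across the Il10-/- libraries and 0.48 ± 1.18 across those that also lacked TNF receptor 1 (SD, n = 5 and 6), and Asl over Arg2 averaged 0.96 ± 1.504 and 0.47 ± 0.60. The arginine-making enzyme exceeded Arg2 in 6 of 11 libraries for the Ass1 sum, in 4 of 11 for the coding transcript of Ass1 and in 9 of 11 for the Asl sum, which is mostly short transcripts. Il10-/- replicate 1 held the highest of both ratios, 4.32 and 3.60. Between genotypes, these ratios and that of Ass1 over Asl gave exact permutation p-values from 0.600 to 0.859, all 0.859 after adjustment over 4 ratios, so none differed beyond the spread between animals. The fourth, Lct over Sis, is not given, because with Lct near 0 it is set by the pseudocount and Sis.

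Sis and Cps1 were high in the same 4 animals, Il10-/- replicate 2 and Il10-/- Tnfr1-/- replicates 1, 2 and 4. Otc was high in those 4 and in 1 more. Sis, on chromosome 3 from 72888557 to 72967863 (minus strand), was at 0, 12.9, 2.72, 0.882 and 1.25 in Il10-/- replicates 1, 2, 3, 5 and 6. In Il10-/- Tnfr1-/- replicates 1, 2 and 4 it was at 17.3, 19.7 and 12.1, and in replicates 3, 5 and 6 at 0.134, 3.42 and 0.398. Sucrase-isomaltase transcript was thus plain in 4 colons and at most 3.42 in the other 7. Cps1, on chromosome 1 from 67123026 to 67231259 (plus strand), was highest in the same 4 libraries, at 18.4 in Il10-/- replicate 2 and 11.9, 9.34 and 25.1 in Il10-/- Tnfr1-/- replicates 1, 2 and 4, and lay between 0.897 and 3.81 elsewhere. Otc, on chromosome X from 10252305 to 10321024 (plus strand), was at 7.88 in Il10-/- replicate 2 and at 8.14, 5.07 and 8.26 in Il10-/- Tnfr1-/- replicates 1, 2 and 4. It was also high, at 8.75, in Il10-/- Tnfr1-/- replicate 5, and lay between 0.235 and 3.14 in the remaining 6.

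Across the 11 libraries Sis and Cps1 correlated at r = 0.905 (permutation p = 0.00038, adjusted over 28 pairs 0.0106) and rho = 0.791 (p = 0.0055, adjusted 0.077). Centred within genotype r was 0.896, and without the 2 libraries farthest from the median of Sis it was 0.940. Sis and Otc gave r = 0.806 (permutation p = 0.00265, adjusted 0.0247) and rho = 0.691 (p = 0.0223, adjusted 0.139), but the call was lost without the 2 farthest libraries (r = 0.816, adjusted 0.145) and without Il10-/- replicate 1 (r = 0.772, adjusted 0.121). Otc and Cps1, at r = 0.744 (permutation p = 0.0087, adjusted 0.0609) and rho = 0.645 (p = 0.0372, adjusted 0.149), did not pass, although r was 0.942 without Il10-/- replicate 1 and Il10-/- Tnfr1-/- replicate 5. The libraries fall toward a high and a low end. Among the 7 libraries outside the 4 of highest Cps1, r was 0.700 for Sis and Cps1, 0.701 for Sis and Otc and 0.503 for Otc and Cps1, given with no test because those libraries were chosen on Cps1. On the protein-coding transcripts of Sis, which held 60.9% of its signal, r with Cps1 was 0.918.

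**Figure D4:**
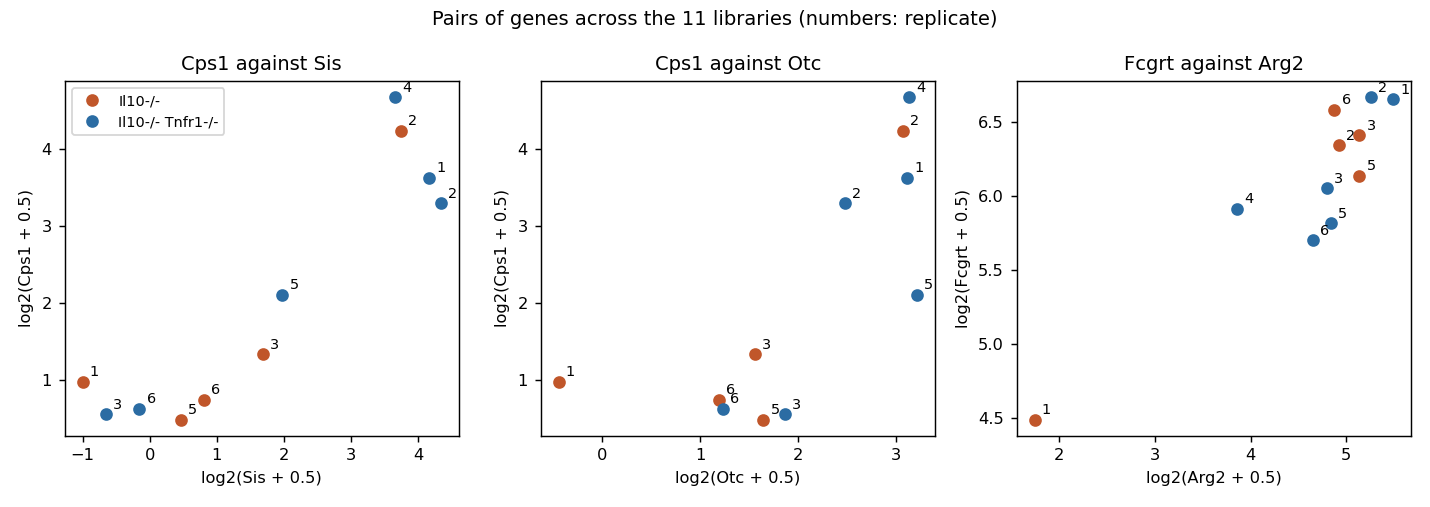
Log2(abundance + 0.5) of Cps1 against Sis, Cps1 against Otc and Fcgrt against Arg2 in the 11 libraries, with orange points for Il10-/- and blue for Il10-/- Tnfr1-/- colons, numbered by replicate. The 4 libraries high for Sis and Cps1 are Il10-/- replicate 2 and Il10-/- Tnfr1-/- replicates 1, 2 and 4. Il10-/- replicate 1 lies far from the rest in the Fcgrt and Arg2 panel.

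By genotype these 3 genes had the largest average differences of the 8 tested, none of which passed. Means in Il10-/- and Il10-/- Tnfr1-/- colons were 3.55 ± 5.31 and 8.84 ± 8.67 for Sis, 4.79 ± 7.62 and 8.69 ± 9.19 for Cps1, and 2.99 ± 2.89 and 5.87 ± 2.95 for Otc (SD, n = 5 and 6). The limma log2 fold changes were 1.08 ± 1.06 (SE, adjusted p = 0.646), 0.93 ± 0.85 (SE, adjusted p = 0.625) and 1.10 ± 0.55 (SE, adjusted p = 0.536). Single libraries moved them in either direction. For Sis the value was 0.54 without Il10-/- replicate 1 and 1.73 without Il10-/- replicate 2. For Cps1 it was 0.49 without Il10-/- Tnfr1-/- replicate 4 and 1.599 without Il10-/- replicate 2, and for Otc 0.64 without Il10-/- replicate 1 and 1.52 without Il10-/- replicate 2 (limma unadjusted p = 0.0116).

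A few genes of the same pathways, picked after their values were seen, were high in these animals, while others were not. Oat, the ornithine aminotransferase that links proline and glutamate to citrulline, was at 290.6 in Il10-/- replicate 2 and at 357.9, 330.6 and 264.2 in Il10-/- Tnfr1-/- replicates 1, 2 and 4, and between 44.4 and 226.7 elsewhere. Naaladl1, a brush border peptidase, was at 36.8, 50.03, 39.0 and 34.0 in the same 4 libraries and at most 21.6 elsewhere. Nags, which makes the activator of carbamoyl-phosphate synthase, did not follow, with 9.59, 11.5, 12.4 and 6.41 in those 4 libraries and its highest value, 13.9, in Il10-/- replicate 6. By the same measure as for Ass1, the genes most like Cps1 were Lgals2, a galectin (r = 0.937), Sgpp1, a sphingosine-1-phosphate phosphatase (r = 0.910), and Sis itself (r = 0.896). No relation with Hoxb13, which marks the distal colon, passed. Its log2 value gave r = -0.40 with Sis, -0.46 with Cps1 and -0.56 with Otc (rho = -0.35, -0.42 and -0.46, permutation p between 0.0727 and 0.299 among the 24 relations). These were -0.71, -0.69 and -0.86 without Il10-/- Tnfr1-/- replicates 4 and 6, and -0.22, -0.41 and -0.33 without Il10-/- replicate 1. Il10-/- Tnfr1-/- replicate 2, with the highest Sis, had Hoxb13 at 30.5. Il10-/- Tnfr1-/- replicate 6 had the lowest Hoxb13 and the highest Fabp2 but Sis at only 0.398. Slc10a2 of the small intestine list, also picked after its values were seen, was at 38.3 in Il10-/- replicate 2. It was at 51.3, 44.6 and 31.4 in Il10-/- Tnfr1-/- replicates 1, 2 and 4 and highest, at 56.7, in replicate 6. In the remaining libraries Slc10a2 was at most 22.3. Other genes of that list did not follow the 4 animals. Fabp6 was at 3.24 in Il10-/- replicate 2 and at 4.20, 2.85 and 2.37 in Il10-/- Tnfr1-/- replicates 1, 2 and 4. Its highest value, 19.4, was in Il10-/- replicate 6. Rbp2 (239.8) and Apob (52.4) were highest in Il10-/- Tnfr1-/- replicate 6.

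Promoters are shown for Lct, Otc and Sis, because lactase was near 0 while Sis and Otc moved together. RefSeq (GRCm38.p6) gave a promoter for 6 of the 10 genes, and the 250 bases before the start were searched on both strands for the PRDM1 core AGNGAAAG and, chosen after the data were seen, for TTTATG, the core recognised by the caudal factors CDX1 and CDX2. Capitals mark matches, and the sequences read 5′ to 3′ on the strand of the gene.
Sis, chr3:72967864-72968113, minus strand: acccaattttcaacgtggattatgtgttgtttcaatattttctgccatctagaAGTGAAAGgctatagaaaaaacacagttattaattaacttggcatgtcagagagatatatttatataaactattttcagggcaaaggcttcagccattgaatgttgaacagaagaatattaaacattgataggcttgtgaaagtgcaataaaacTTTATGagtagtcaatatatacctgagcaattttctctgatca
Lct, chr1:128328319-128328568, minus strand: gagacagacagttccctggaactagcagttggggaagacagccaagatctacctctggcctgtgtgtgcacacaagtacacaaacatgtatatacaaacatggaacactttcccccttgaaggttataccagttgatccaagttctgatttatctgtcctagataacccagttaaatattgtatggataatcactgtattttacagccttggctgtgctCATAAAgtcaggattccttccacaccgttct
Otc, chrX:10252055-10252304, plus strand: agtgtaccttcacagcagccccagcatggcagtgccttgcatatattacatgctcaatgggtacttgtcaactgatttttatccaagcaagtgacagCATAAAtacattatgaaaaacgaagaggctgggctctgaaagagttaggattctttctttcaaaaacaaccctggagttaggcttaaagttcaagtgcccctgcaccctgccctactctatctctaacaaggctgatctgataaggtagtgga
The PRDM1 core was in 1 of the 6 promoters, that of Sis, 197 to 190 bases before the start. It was in 7.3% of 32841 windows of this length. The CDX core was in 3, 43 to 38 bases before the start in Sis, and on the opposite strand 31 to 26 bases before it in Lct and 153 to 148 in Otc, and was in 10.8% of windows. These are matches of letters, not sites of binding. The relation of Cdx2 transcript to Sis was not tested. The lowest Cdx2 values, 23.7 and 62.7, were in libraries with Sis at 0 and 0.134. The highest, 257.9 and 229.2, were in libraries with Sis at 0.398 and 1.25, and a Cdx2 value of 103.7 went with Sis at 12.1. In Il10-/- replicate 2 and Il10-/- Tnfr1-/- replicates 1 and 2, also high in Sis, Cdx2 was at 149.8, 164.8 and 146.9. The remaining libraries had Cdx2 between 135.9 and 149.1.

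Arg2 and Fcgrt, 1 gene of each side of the switch, rose together rather than in opposition. Over the 11 libraries r was 0.913 (permutation p = 0.00132, adjusted 0.0185) and rho 0.882 (p = 0.00072, adjusted 0.0202). The relation leaned on Il10-/- replicate 1, lowest for both. Without it r was 0.656 (adjusted 0.141), and without it and Il10-/- Tnfr1-/- replicate 4 it was 0.750 (adjusted 0.145). The genes most like Fcgrt were Dnase1l1, a DNase I family enzyme (r = 0.963), Hs1bp3, an HCLS1-binding protein (r = 0.957), and Afm, afamin (r = 0.955), and all 3 were also lowest in Il10-/- replicate 1. For Prdm1 they were Pcdh1, a protocadherin (r = 0.953), Heph, the ferroxidase hephaestin (r = 0.933), and Vil1, the brush border protein villin (r = 0.915). These rested on Il10-/- Tnfr1-/- replicate 6, without which r was 0.617, 0.491 and 0.652.

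Prdm1 gave no relation with a gene it is known to hold back that passed. It correlated with Sis at r = -0.39 (rho = -0.36, permutation p = 0.256 and 0.273, adjusted 0.512 and 0.587) and with Arg2 at r = -0.04 (rho = 0.03, permutation p = 0.839 and 0.946, adjusted 0.925 and 0.981). With Ass1, a gene of the suckling side, r was -0.55 (rho = -0.63, permutation p = 0.0733 and 0.0441, adjusted 0.228 and 0.154). Otc gave r = -0.49 with Prdm1 (rho = -0.71, permutation p = 0.123 and 0.0180, adjusted 0.344 and 0.139) and did not pass either. Ass1 and Asl gave r = 0.601 (rho = 0.555, permutation p = 0.0474 and 0.0814, adjusted 0.188 and 0.253). This r depended on scaling, at 0.914 with libraries scaled to an equal total and 0.249 with median-ratio factors. It was 0.38 without Il10-/- Tnfr1-/- replicate 6 and Il10-/- replicate 3, and 0.423 on the coding Ass1 transcript.

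The wider pathways also held no gene past the adjusted threshold (limma, 0 called in each list below). Over all genes 55.5% were higher, and 6605 of 13588 with median-ratio factors. Of 14 tested partners of the urea and citrulline-arginine cycle, 11 were higher and 3 lower on average in Il10-/- Tnfr1-/- colons, with 2 and 3 at an unadjusted p under 0.05 (backgrounds 4.74% higher and 3.6% lower) and a median log2 fold change of 0.16. Nos2, the inducible nitric oxide synthase that uses arginine, was at 22.8 ± 16.4 (SD, n = 5) and 4.79 ± 1.66 (SD, n = 6), a log2 fold change of -1.75 ± 0.57 (SE, limma adjusted p = 0.536). Of 9 neutrophil markers, 3 were tested (Ly6g, S100a8 and S100a9) and all 3 were lower in Il10-/- Tnfr1-/- colons. Each had an unadjusted p under 0.05 and 0 passed adjustment (limma). The list summed to 34.8 to 521.6 in Il10-/- and 4.24 to 97.1 in Il10-/- Tnfr1-/- libraries. Much of this sum was Ly6g, at 437.6 in Il10-/- replicate 1. Ly6g did not always go with the others. In Il10-/- replicate 3 it was at 139.5 but S100a8 at 7.74, so the sum is not a measure of neutrophils. Among markers too low to test, Retnlg was higher on average (0.286 and 0.547). Csf3r (1.12 and 0.367), Cxcr2 (0.630 and 0.391) and Camp (0.361 and 0.304) were lower. Ngp and Mmp8 were near 0 in every library. The part of neutrophils in the Nos2 values was not tested. Oat was at 127.6 ± 97.7 and 247.5 ± 95.6, a log2 fold change of 1.14 ± 0.47 (SE, limma adjusted p = 0.536). Of 12 polyamine genes, 7 were higher and 5 lower, with 0 and 1 at an unadjusted p under 0.05 and a median of 0.05 (6 and 6, median -0.02, with median-ratio factors). There Smox, spermine oxidase, was at 52.1 ± 30.8 and 28.3 ± 8.32 (log2 fold change -0.75 ± 0.31), and Oaz2, an inhibitor of ornithine decarboxylase, at 34.9 ± 11.7 and 46.8 ± 15.02 (0.42 ± 0.25). The most abundant were Sat1 (mean 516.3 over all libraries), which acetylates polyamines, and Oaz1 (486.4).

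Of 9 tested brush border enzymes other than lactase and sucrase, 7 were higher and 2 lower, with 1 and 0 at an unadjusted p under 0.05 and a median of 0.28 (6 and 3 with median-ratio factors). The background over all genes was 55.5% higher, with 4.74% higher and 3.6% lower at an unadjusted p under 0.05. Enpep, a glutamyl aminopeptidase, was at 1.97 ± 1.53 and 5.92 ± 5.08 (log2 fold change 1.26 ± 0.55), and Mep1a, a meprin subunit, at 96.1 ± 44.7 and 132.0 ± 31.5 (0.64 ± 0.39). Mgam, the maltase-glucoamylase that is kin to sucrase-isomaltase, was at 108.2 ± 19.99 and 88.3 ± 23.8 and, unlike Sis, was over 58 in every library. Of 13 genes of neonatal endocytic enterocytes, 10 were higher and 3 lower, with 1 and 0 at an unadjusted p under 0.05 and a median of 0.16 (9 and 4 with median-ratio factors, 12 and 1 with equal totals). Among all genes, 6605 of 13588 were higher with median-ratio factors and 9501 of 13633 with equal totals. The lysosomal membrane gene Lamp2 was at 64.4 ± 21.4 and 93.1 ± 16.0 (0.57 ± 0.22) and the protease gene Ctsl at 87.4 ± 15.8 and 120.4 ± 30.3 (0.44 ± 0.21), while Lamp1 (242.3) and Ctsd (182.0) had the highest means over all libraries. Cubn, the endocytic receptor cubilin, was at 8.64 in Il10-/- replicate 2 and at 12.97, 15.7 and 7.25 in Il10-/- Tnfr1-/- replicates 1, 2 and 4, again above the at most 4.90 elsewhere, and was likewise named after its values were seen.

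Of 5 tested Fc receptor and immunoglobulin transport genes, 4 were higher and 1 lower, with 1 and 0 at an unadjusted p under 0.05 and a median of 0.48. For this list and the next, the background was 55.5% higher, with 4.74% higher and 3.6% lower at an unadjusted p under 0.05. B2m, the light chain that pairs with the neonatal Fc receptor, was at 602.9 ± 150.9 and 959.9 ± 468.0 (log2 fold change 0.56 ± 0.33), Fcgr2b, an inhibitory Fc receptor of immune cells, at 1.52 ± 0.782 and 3.04 ± 1.27 (0.82 ± 0.34), and Pigr, which carries IgA across epithelium, at 468.5 ± 174.3 and 402.0 ± 121.8. Of 18 regulators of intestinal maturation, 15 were higher and 3 lower, with 4 and 0 at an unadjusted p under 0.05 and a median of 0.26 (13 and 5 with median-ratio factors). Nr3c1, the glucocorticoid receptor, was at 12.9 ± 4.38 and 18.3 ± 1.73 (0.54 ± 0.19) and Hnf4g, a nuclear receptor of enterocytes, at 2.11 ± 1.86 and 4.12 ± 1.29 (1.12 ± 0.45). Cdx1 (170.4) and Hnf4a (155.1) were the most abundant by mean over all libraries. Each genotype value in these lists is a mean ± SD over 5 and 6 libraries, each bracketed fold change carries its SE, and limma adjusted p-values of the 12 genes with a fold change lay between 0.536 and 0.537. The smooth muscle markers were also higher in Il10-/- Tnfr1-/- colons. With their score in the fit, the log2 fold change was 0.32 for Enpep, -0.05 for Oaz2, -0.46 for Smox and -1.20 for Nos2, and the other 8 lay between 0.36 and 0.81, with adjusted p-values of the 12 between 0.911 and 0.971.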

How the data were processed

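Total RNA of dissected colons was sequenced from strand-specific mRNA libraries as single-end reads, per the labels' protocols. Tools listed, with no version, in the submitters' processing notes are CASAVA, kallisto and sleuth, and the build is mm10. The deposited abundances are a signal that the authors scaled and divided by transcript length, in which depth is unknown. Per the file headers the table also holds the authors' p-value and q-value for each transcript.

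Of 12 labelled samples, 11 had a column matching their title. A further 1 library column that matched no sample, and Il10-/- replicate 4, were not used. Replicates are numbered in sample order and unpaired. The first digit of a sample's name is unexplained: 1 occurs in both genotypes, 2 and 3 in Il10-/- Tnfr1-/- alone and 4 in Il10-/- alone, so beyond names with 1 it cannot be told apart from genotype. Repeated rows (866) were dropped and 113193 transcripts summed to 35688 genes. Transcript classes, lengths and gene positions came from GENCODE M21, and promoters from RefSeq. Limma 3.58.1 (R 4.3.3, trend and robust) was fitted to log2(value + 0.5) over 13561 genes that exceeded 1 in 5 or more libraries, the size of the smaller group, with Benjamini-Hochberg adjustment and a two-sided threshold of 0.05. Fold changes are on that scale and understate low genes. Scripts were tested on simulated data. Exact two-sided permutation tests used all 462 assignments (smallest p 0.00216), and correlations 100000 permutations. Marker scores are mean log2 values of a list, centred per gene. Named genes are the 10 genes, the 2 of smallest p and the 2 of highest mean of each pathway list, the most abundant of marker lists where used, the 3 most correlated with Prdm1, Ass1 and Fcgrt (mean at least 5; for Cps1 added later), Tnfrsf1a and Il10; 1 gene this rule names is not reported here. Other pseudocounts, filters, scalings, covariates and left-out libraries were tried. The members and lists were chosen with earlier results of these data known.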

Additional observations from a re-analysis of the deposited data

Results flagged for a closer look

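In 56 groups of values by genotype, the highest or lowest library was compared with its nearest neighbour by Dixon's test, and 6 stood beyond the 95% critical value. For independent, normally distributed values about 1 in 20, or 2.8, would do so. Abundances were tested here without the log2 step used elsewhere, and the groups include related genes. The count of 6 can therefore not be held against 2.8, and the flags are a description. Prdm1 was at 6.81 in Il10-/- Tnfr1-/- replicate 6 and next highest at 2.29. Arg2 was at 2.84 in Il10-/- replicate 1, with the next lowest at 28.9, and in the same library the log2 ratio of Asl over Arg2 was 3.60, with the next highest at 0.62. In Il10-/- replicate 2, Sis was at 12.9 (next highest 2.72) and Cps1 at 18.4 (next highest 2.02). Oaz2 was at 55.0 in Il10-/- replicate 3, with the next highest at 33.1.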

How the results depend on the processing

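No member passed the adjusted threshold under any of the 23 alternatives (184 combinations of member and setting, lowest adjusted p 0.34), and the direction held in 166 of them. Prdm1 turned to log2 fold changes of 0.057 with equal library totals, 0.25 with the smooth muscle score and 0.12 with the epithelium score as covariates. Ass1 turned to -0.76 among names that start with 1 and with the first digit as a factor, -1.08 with the smooth muscle and -0.26 with the epithelium score. Asl turned to 0.11 with equal totals. The exact permutation test takes the same difference in mean log2 value, so its values (0.057 for Prdm1, 0.11 for Asl, -0.76 for Ass1) are equal by construction. Oaz2 turned to -0.0065 in both name settings and -0.053 with the smooth muscle score, and Ass1 over Asl to -0.70 among names that start with 1, where 3 libraries against 2 cannot give an exact p below 0.1. The name settings also moved Sis to 2.77, Arg2 to 1.44 and Fcgrt to 0.92. The causes were not tested.

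Leaving out 1 library at a time, log2 fold changes ran from -0.33 to 0.10 for Prdm1, -0.25 to 0.60 for Ass1, -0.13 to 0.074 for Asl, -0.20 to 0.65 for Arg2, -0.23 to 0.29 for Fcgrt, 0.54 to 1.73 for Sis, 0.64 to 1.52 for Otc and 0.49 to 1.599 for Cps1, and differences in ratio from -0.90 to 0.49 for Ass1 over Arg2, -0.73 to 0.17 for Asl over Arg2 and -0.17 to 0.52 for Ass1 over Asl. Genes called over the whole table ran from 0 to 2, the 2 being Tnfrsf1a and Il18 without Il10-/- replicate 2, and genes at an unadjusted p under 0.05 from 142 (names that start with 1) to 2458 (without Il10-/- replicate 1), with 482 without Il10-/- replicate 6, 243 with the first digit and 616 with the smooth muscle score. Some correlations came to pass the adjusted threshold. With equal totals these were Otc and Cps1 at 0.763 and Ass1 and Asl at 0.914 (0.249 with median-ratio factors). Without the 2 farthest libraries it was Otc and Cps1 at 0.942. Others ceased to pass without the 2 farthest libraries, namely Sis and Otc at 0.816 and Arg2 and Fcgrt at 0.750 (permutation adjusted p = 0.145 for each). Without Il10-/- replicate 1, Sis and Otc (0.772) and Arg2 and Fcgrt (0.656) did not pass. Equal totals moved the median of all genes to 0.187, and with median-ratio factors it was -0.0127. No paired analysis was possible because the labels give no replicate numbers shared between the genotypes.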
